A study of Mus musculus with 12 samples.

Results

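The genes of the major histocompatibility complex (MHC) and of antigen presentation were taken as the rows of the deposited gene table whose symbol starts with H2-, the mouse MHC, together with B2m, Tap1, Tap2, Tapbp, Cd74, Ciita and Nlrc5. This rule uses names and no measured value, and it gave 50 members among 29564 rows. By role, 30 members were class I heavy chains, 1 was the class I light chain (B2m), 3 serve peptide loading of class I (Tap1, Tap2, Tapbp), 13 were class II genes including Cd74, and 2 were regulators (Ciita, Nlrc5). The remaining member, H2-Ke6, encodes a steroid dehydrogenase and carries an H2 name only for its place on the chromosome. On GRCm38, 46 members lie on chromosome 17, with B2m on chromosome 2, Nlrc5 on chromosome 8, Ciita on chromosome 16 and Cd74 on chromosome 18. The annotation gives 41 as protein-coding and 9 as pseudogenes of some kind.

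Poly(A) RNA was sequenced from the left ventricle of 12 wild-type C57BL6 mice, 4 in each of 3 groups, and every mouse gave its own library. Control-Veh mice were non-failing and received vehicle. HFpEF-Veh mice had heart failure with preserved ejection fraction (HFpEF) induced by a high-fat diet with L-NAME, which blocks nitric oxide synthase, and received vehicle. HFpEF-TYA-018 mice were induced likewise and were given 15 mg/kg TYA-018 orally, a compound that inhibits the deacetylase HDAC6. The study used adult males, and the labels themselves give neither sex nor age. The series title speaks of a single dose, whereas the treatment label describes repeated dosing, and the title was followed. Each library has a letter for its group (C for Control-Veh, V for HFpEF-Veh, T for HFpEF-TYA-018) and a number that follows the order of the animal numbers. Those numbers form 1 block per group, so that cage, date or processing order cannot be told apart from group.

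MHC class I molecules are found on nearly all nucleated cells. Each is a heavy chain paired with beta-2-microglobulin (B2m), and it carries peptides that the proteasome cuts and the Tap1-Tap2 transporter moves into the endoplasmic reticulum, where tapasin (Tapbp) helps load them. H2-K1 and H2-D1 encode the classical heavy chains of this strain, which present to CD8 T cells, and the H2-Q, H2-T and H2-M genes encode non-classical ones. MHC class II molecules (H2-Aa with H2-Ab1) are made mainly by macrophages, dendritic cells and B cells, are guided by the invariant chain Cd74, and present to CD4 T cells. Nlrc5 is the main transactivator of class I genes and Ciita that of class II genes, and both act through a promoter unit that includes an X box and a Y box.

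The promoters are shown to make that shared unit visible for the members on which the results turn. The lines below give the 180 bases before the RefSeq start on GRCm38.p6, 5′ to 3′ on the gene's strand, for B2m, a classical heavy chain (H2-D1), the 3 H2-Q genes whose counts differed in HFpEF-Veh, and a class II gene (H2-Aa). Capitals mark ATTGG on either strand (Y box), ACNGATG (part of an X box), GAAANNGAA (part of an interferon response element) and GGGGATTCC (a kappa B site). B2m lies at chr2:122147507-122147686 on the plus strand, H2-D1 at chr17:35262914-35263093 (plus), H2-Q4 at chr17:35379437-35379616 (plus), H2-Q6 at chr17:35424670-35424849 (plus), H2-Q7 at chr17:35438975-35439154 (plus) and H2-Aa at chr17:34287824-34288003 (minus).
B2m: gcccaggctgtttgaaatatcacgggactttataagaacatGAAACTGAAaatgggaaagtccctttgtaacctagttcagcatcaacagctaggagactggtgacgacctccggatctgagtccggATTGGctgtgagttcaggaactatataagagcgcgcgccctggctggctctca
H2-D1: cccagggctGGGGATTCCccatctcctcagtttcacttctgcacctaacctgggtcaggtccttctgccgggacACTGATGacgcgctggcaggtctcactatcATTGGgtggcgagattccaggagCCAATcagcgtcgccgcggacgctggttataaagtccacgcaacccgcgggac
H2-Q4: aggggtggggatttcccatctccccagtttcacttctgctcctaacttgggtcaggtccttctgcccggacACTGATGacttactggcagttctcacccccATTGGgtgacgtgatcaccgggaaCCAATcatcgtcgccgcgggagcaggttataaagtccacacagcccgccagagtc
H2-Q6: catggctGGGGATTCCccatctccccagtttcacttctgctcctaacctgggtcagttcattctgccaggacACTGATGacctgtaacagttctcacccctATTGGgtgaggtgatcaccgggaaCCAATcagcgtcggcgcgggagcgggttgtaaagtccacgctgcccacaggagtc
H2-Q7: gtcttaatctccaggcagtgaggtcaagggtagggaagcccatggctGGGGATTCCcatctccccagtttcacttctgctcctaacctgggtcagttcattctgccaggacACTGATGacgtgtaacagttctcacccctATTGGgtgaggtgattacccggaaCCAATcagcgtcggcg
H2-Aa: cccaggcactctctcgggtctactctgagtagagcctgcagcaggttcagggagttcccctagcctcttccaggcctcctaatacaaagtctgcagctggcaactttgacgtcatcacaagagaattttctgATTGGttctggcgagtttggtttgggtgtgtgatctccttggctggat

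The 4 heavy chain windows all hold the X-box letters, an ATTGG and a CCAAT (the same motif on the other strand) in that order. H2-D1, H2-Q6 and H2-Q7 also hold GGGGATTCC. The window of H2-Q4 holds GGGGATTTCC near its start, with a further T. Only the exact letters GGGGATTCC were searched, so their absence does not show that H2-Q4 lacks a kappa B site. The B2m window holds 1 ATTGG and the letters GAAANNGAA, and the H2-Aa window holds 1 ATTGG. Over the whole 250 bases before the start, 37 RefSeq promoters belonged to 34 of the 50 members. ATTGG was in 33 of those 37 (89.2%), against 33.8% of all 32851 promoters of the table. ACNGATG was in 18 (48.6%, against 8.31%), and GGGGATTCC was in 5 (13.5%, against 0.213%), all of them of heavy chains. GAAANNGAA was in 3 (8.11%, against 7.13%), and TTCNNNGAA, the letters of a gamma-activated site, was in 3 (8.11%, against 7.02%). Both strands were searched. Many of these genes are recent copies of each other, so their promoters are not independent. A match describes letters and is not evidence of binding.

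Levels are CPM, the counts of a gene relative to the total of its library scaled to 1 M, after trimmed mean of M values (TMM) scaling. Library totals were 61.2 to 83.9 M estimated counts, so a count of 0 allows a level of up to 0.0357 to 0.0490 CPM (3 counts, counting error only). The 50 members together took 0.0892% to 0.127% of a library's counts. At 0 in all libraries were 13 members, most of them H2-M10 genes or pseudogenes, and 10 more had a value but never exceeded 30 counts, of which H2-K2, H2-M5 and H2-Oa passed the filter. A filter on low counts left 30 members for testing, namely 14 heavy chains, B2m, the 3 peptide loading genes, 9 class II genes, both regulators and H2-Ke6. Tests were made with edgeR in 1 fit of all 12 libraries, and genes with a p under 0.05 after Benjamini-Hochberg adjustment over 14333 genes count as called. The 2 comparisons that involve HFpEF-Veh share its 4 libraries, and likewise for the other groups.

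Facts of the tissue bear on every value below. Cardiomyocyte markers dominated all libraries (summed 22224 to 32463 CPM), as the ventricle label implies. Of 6 such markers, 4 were called lower and 1 higher in HFpEF-Veh against Control-Veh. After TYA-018, 1 was called higher against HFpEF-Veh. Of 6 fibroblast markers, 3 were called higher in HFpEF-Veh against Control-Veh, and 4 were called lower after TYA-018 against HFpEF-Veh. The summed fibroblast level was 608 to 862 CPM for HFpEF-Veh, 411 to 616 for Control-Veh and 398 to 587 for HFpEF-TYA-018. Macrophage and monocyte markers were higher in HFpEF-Veh, with a summed level of 214 to 287 CPM against 138 to 172 CPM in Control-Veh and 157 to 192 CPM in HFpEF-TYA-018, and 9 of the 10 tested markers were called higher. Red cell markers (all 5 called) summed to 4785 to 14139 CPM in HFpEF-Veh, 1553 to 2309 CPM in Control-Veh and 2295.98 to 3572 CPM in HFpEF-TYA-018. Endothelial markers, of which 3 of 8 were called higher in HFpEF-Veh, summed to at least 945 CPM there and at most 934 CPM elsewhere. The share of counts from the mitochondrial genome was 43.1% to 47.7% in HFpEF-Veh, above the 35.4% to 41.2% of the other 8 libraries. In bulk tissue, fewer cells of a type and less RNA per cell cannot be told apart. The part of these differences in the results below was not tested. Fits with a macrophage or endothelial score as a covariate are given below. They cannot separate that part from group, because the sums of these markers set HFpEF-Veh apart from the other groups.

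Few members were called. Between HFpEF-Veh and Control-Veh, 4 of 30 tested members were called, or 13.3%, where 21.2% of all tested genes were called. One was higher (H2-T24) and 3 were lower (H2-Q4, H2-Q6, H2-Q7), against 10.9% of all genes called higher and 10.3% called lower. Between HFpEF-TYA-018 and HFpEF-Veh, 2 of 30 were called (6.67%), both lower (B2m, H2-T24), where 19.3% of all genes were called, 8.93% higher and 10.4% lower. Between HFpEF-TYA-018 and Control-Veh, 2 of 30 were called (6.67%), both lower (H2-Q4, H2-Q6), where 5.86% of all genes were called, 3.12% higher and 2.74% lower. The median log2 fold change of the 30 members was 0.04, -0.09 and -0.09 in the 3 comparisons, beside -0.01, 0.00 and -0.02 over all tested genes. In neither comparison with HFpEF-Veh did the share of called members exceed the background, and no class II gene, peptide loading gene or regulator was called. A macrophage score was added to the fit as a covariate, and an endothelial score, made alike, in a separate fit. Each score is the mean over markers of log2 CPM, with every marker centred on its own mean. The macrophage score left no member called in either comparison with HFpEF-Veh, and 1 and 0 of all 14333 genes.

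**Figure D1:**
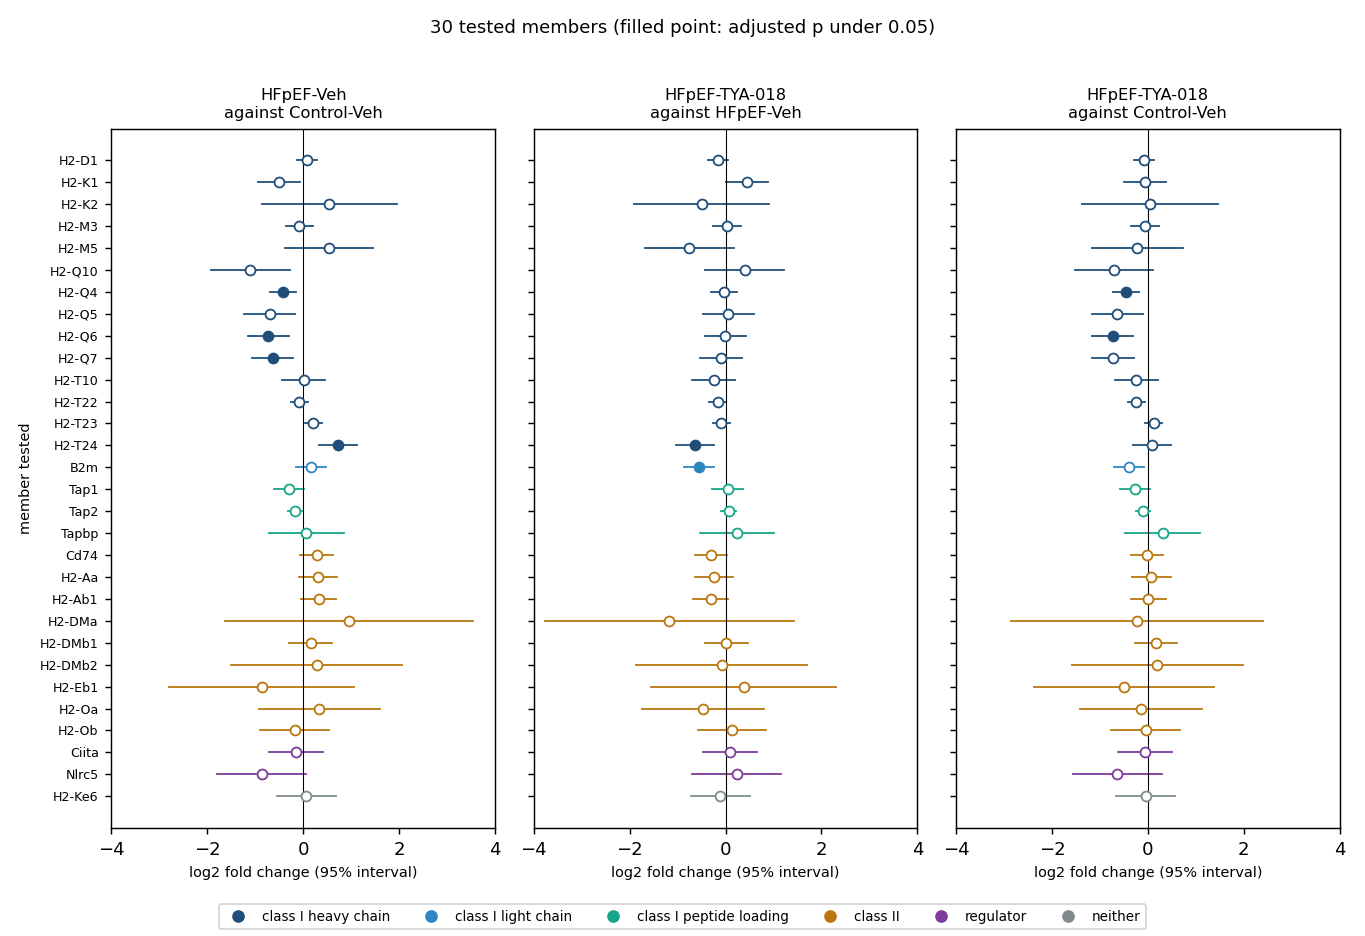
Log2 fold change (x axis) with its 95% interval for each of the 30 tested members (y axis), in the 3 comparisons, coloured by role. Filled points are called at an adjusted p under 0.05. The filled points are H2-Q4, H2-Q6, H2-Q7 and H2-T24 on the left, H2-T24 and B2m in the middle, and H2-Q4 and H2-Q6 on the right, and the class II intervals all span 0.

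B2m, the light chain that class I heavy chains need to reach the cell surface, fell after TYA-018. The gene lies at chr2:122147686-122153083 on the plus strand. Its level was 312, 333, 257 and 272 CPM in C1 to C4, 338, 381, 274 and 324 CPM in V1 to V4, and 164, 237, 243 and 252 CPM in T1 to T4. The 4 treated libraries were below every other library, and T1 was the lowest by far. Against HFpEF-Veh the log2 fold change was -0.56 (SE 0.14, adjusted p = 0.0183 by edgeR), a ratio of 0.680. It remained called without T1, at -0.43 and adjusted p = 0.0368, and was not called without V2, at -0.48 and adjusted p = 0.0507. On log2(TPM + 1) of the deposited values the difference was -0.27 and not called (adjusted p = 0.127 by limma). The study rescaled TPM over protein-coding genes without the mitochondrial ones, and on log2(TPM + 1) rescaled in that way B2m stayed called. With the endothelial score as a covariate the difference was -0.33 (adjusted p = 0.417 by edgeR), in a fit that left 96 of all tested genes called. Against Control-Veh the log2 fold change was -0.39 with an adjusted p of 0.124 by edgeR, and HFpEF-Veh against Control-Veh gave 0.16 with an adjusted p of 0.432. No 31-base stretch of the B2m transcripts occurs in another annotated gene, so its count does not depend on how reads of copies were shared out.

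**Figure D2:**
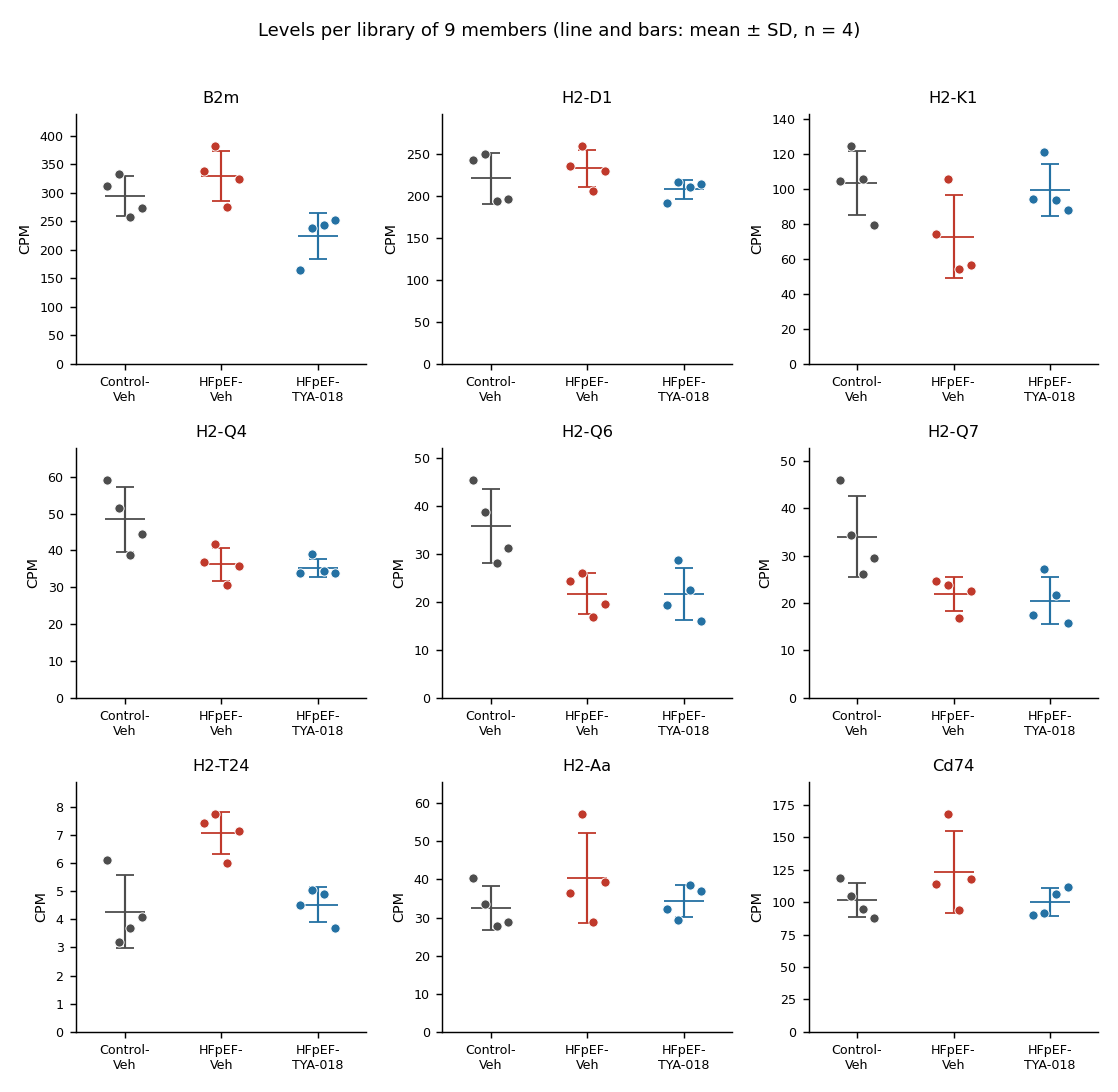
Level in CPM (y axis, from 0) of 9 members in each library, by group. Points are libraries, and the line and bars are the mean and SD of 4 libraries. The HFpEF-TYA-018 points of B2m lie below all others, the Control-Veh points of H2-Q6 and H2-Q7 lie above those of HFpEF-Veh, and H2-T24 is highest in HFpEF-Veh.

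The count of B2m relative to its partners moved in both directions. Set against the summed counts of all class I heavy chains in the same library, which needs no scaling between libraries, B2m stood at 54.3 to 61.4 per 100 in Control-Veh, 70.9 to 74.3 per 100 in HFpEF-Veh and 39.4 to 58.8 per 100 in HFpEF-TYA-018. The means were 58.0 ± 2.97, 72.5 ± 1.49 and 50.1 ± 8.44 (SD, n = 4). HFpEF-Veh lay above both other groups with no overlap, and those other groups overlapped. On the length-corrected TPM scale the ratio was 289 to 336 in Control-Veh, 393 to 469 in HFpEF-Veh and 189 to 314 in HFpEF-TYA-018, in the same order of groups. The deposited effective length of B2m was 251 bases in every library, so its level relative to other genes in TPM rests on that value. The heavy chain sum itself was 444 to 575 CPM in Control-Veh, 387 to 531 in HFpEF-Veh and 417 to 496 CPM in HFpEF-TYA-018, and the 3 ranges overlapped.

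**Figure D3:**
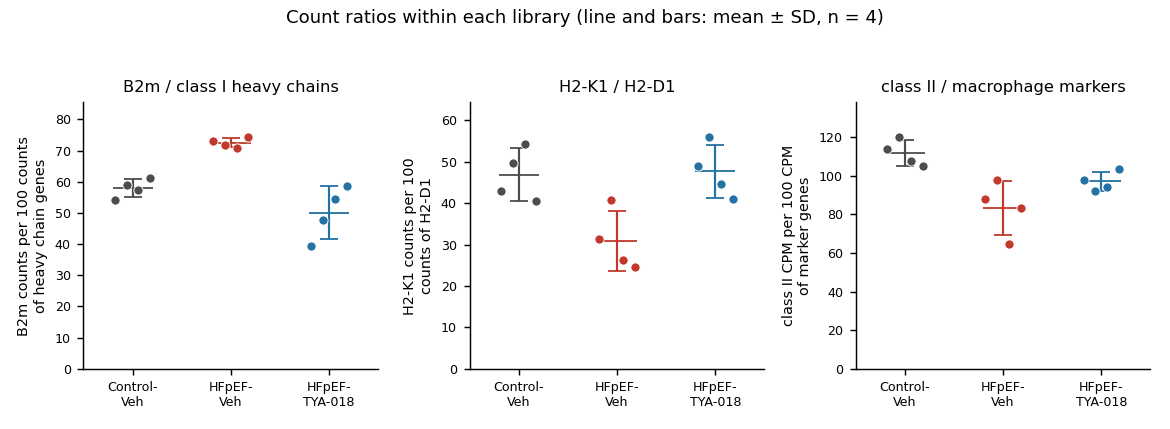
Ratios of CPM within each library (y axes, from 0), by group. Points are libraries, and the line and bars are the mean and SD of 4 libraries. B2m per 100 heavy chain counts was 70.9 to 74.3 in HFpEF-Veh and at most 61.4 elsewhere, H2-K1 per 100 of H2-D1 was lowest in HFpEF-Veh, where 1 library (40.7) overlapped Control-Veh, and class II per 100 of macrophage and monocyte markers was 64.6 to 97.6 in HFpEF-Veh, below Control-Veh.

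The classical heavy chains H2-K1 and H2-D1 were not called in any comparison with all 12 libraries in the edgeR fit on counts. H2-D1 (chr17:35262730-35267499, plus strand) had 243, 249.8, 194 and 196 CPM in C1 to C4, 236, 259, 206 and 230 CPM in V1 to V4, and 192, 217, 210 and 214 CPM in T1 to T4. The groups overlapped. Its 95% interval on the log2 scale ran from -0.14 to 0.29 for HFpEF-Veh against Control-Veh and from -0.37 to 0.05 for HFpEF-TYA-018 against HFpEF-Veh. H2-K1 (chr17:33996017-34000347, minus strand) had 105, 124, 105 and 79.4 CPM in C1 to C4, 74.0, 105, 54.3 and 56.6 CPM in V1 to V4, and 93.9, 121, 93.6 and 87.9 CPM in T1 to T4. Of the HFpEF-Veh libraries, 3 were below all controls, and V2 lay within the control range. The log2 fold change was -0.51 (SE 0.20, adjusted p = 0.0897 by edgeR) for HFpEF-Veh against Control-Veh and 0.45 (SE 0.20, adjusted p = 0.140) for HFpEF-TYA-018 against HFpEF-Veh. Without V2 both were called, at -0.74 (adjusted p = 0.0132 by edgeR) and 0.69 (adjusted p = 0.0214), and DESeq2 on all libraries called the first (adjusted p = 0.0317). With the effective lengths as an offset they were -0.37 (adjusted p = 0.398 by edgeR) and -0.03 (adjusted p = 0.951). For each 100 counts of H2-D1, H2-K1 had 40.4 to 54.4 counts in Control-Veh, 24.7 to 40.7 in HFpEF-Veh and 41.1 to 55.9 in HFpEF-TYA-018. Transcripts of H2-K1 shared 22.8% and those of H2-D1 26.7% of their 31-base stretches with other genes, each having the other as its closest, so part of each count is an estimate of which copy a read came from.

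H2-D1 changed direction between counts and log2(TPM + 1) of the deposited values, and its difference on that TPM scale was called. Its effective length, which the authors' quantification estimates for each library from the mix of transcripts and the bias models, was 1535 to 1806 bases in Control-Veh, 1795 to 1892 bases in HFpEF-Veh and 1452 to 1467 bases in HFpEF-TYA-018. The HFpEF-TYA-018 values were below those of all other libraries. Divided by length, the level was 37.9 to 56.6 TPM in Control-Veh, 36.1 to 43.0 TPM in HFpEF-Veh and 47.7 to 66.0 TPM in HFpEF-TYA-018. On log2(TPM + 1), HFpEF-TYA-018 was therefore above HFpEF-Veh by 0.48 (adjusted p = 0.0425 by limma), whereas the counts gave -0.16. On that scale the median of all tested genes was itself shifted by 0.17, while on the scale of the counts it was at 0.00. H2-Aa (0.65), Cd74 (0.25), H2-Q4 (0.37) and H2-Q6 (0.46) also had positive differences on log2(TPM + 1) and negative ones in counts, and none of these was called on either scale.

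**Figure D4:**
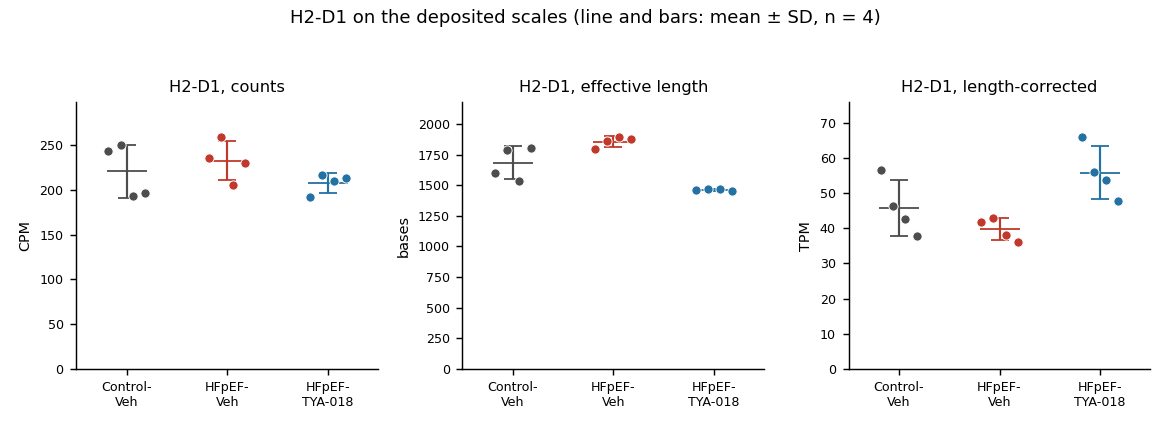
H2-D1 in each library on the 3 deposited quantities, as CPM from the counts, as effective length in bases and as TPM (y axes, from 0), by group. Points are libraries, and the line and bars are the mean and SD of 4 libraries. The counts overlap between groups, the effective length is lowest in HFpEF-TYA-018 at 1452 to 1467 bases, and TPM is higher there than in HFpEF-Veh.

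Of the non-classical heavy chains of the H2-Q region, 3 were called lower in HFpEF-Veh against Control-Veh, and HFpEF-TYA-018 had 2 called lower against the same controls. The region holds 8 members, of which 5 passed the filter, and all 5 had a negative log2 fold change in HFpEF-Veh against Control-Veh, with a median of -0.70 and a range of -1.10 to -0.42. Called were H2-Q4, H2-Q6 and H2-Q7, which is 3 of 5, where 10.3% of all genes were called lower. In HFpEF-TYA-018 against Control-Veh 2 of 5 were called lower, where 2.74% of all genes were. Against HFpEF-Veh, HFpEF-TYA-018 had none called (median -0.01), and none reached an unadjusted p under 0.05. Summed over the region, the level was 97.8 to 159 CPM in Control-Veh, 66.9 to 95.5 in HFpEF-Veh and 68.9 to 99.3 CPM in HFpEF-TYA-018. The HFpEF-Veh range lay wholly below that of Control-Veh, and the HFpEF-TYA-018 range overlapped Control-Veh by 1 library, T2.

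H2-Q6 (chr17:35424850-35430055, plus strand) had 45.4, 38.8, 28.2 and 31.3 CPM in C1 to C4, 24.4, 26.1, 16.8 and 19.6 CPM in V1 to V4, and 19.3, 28.7, 22.5 and 16.003 CPM in T1 to T4. Every HFpEF-Veh library was below every control. The log2 fold change was -0.73 (SE 0.20, adjusted p = 0.0227 by edgeR) for HFpEF-Veh and -0.73 (SE 0.20, adjusted p = 0.0497) for HFpEF-TYA-018, each against Control-Veh. H2-Q7 (chr17:35439155-35443773, plus strand), which encodes the Qa-2 antigen, a membrane-anchored class I molecule, had 45.8, 34.3, 26.2 and 29.6 CPM in C1 to C4, 24.6, 23.7, 16.7 and 22.4 CPM in V1 to V4, and 17.5, 27.1, 21.7 and 15.7 CPM in T1 to T4. Its log2 fold change was -0.64 (SE 0.20, adjusted p = 0.0394 by edgeR) for HFpEF-Veh and -0.73 (SE 0.20, adjusted p = 0.0511, not called) for HFpEF-TYA-018, each against Control-Veh. The control libraries differed among themselves for both genes, with C1 the highest and C3 the lowest.

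H2-Q4 (chr17:35379617-35385290, plus strand), the gene of the Qb-1 antigen, had 59.0, 51.6, 38.6 and 44.5 CPM in C1 to C4, 36.9, 41.7, 30.6 and 35.7 CPM in V1 to V4, and 33.8, 38.9, 34.4 and 33.8 CPM in T1 to T4. Of each HFpEF group, 3 libraries were below all controls, and V2 and T2 were not. Its log2 fold change was -0.42 (SE 0.12, adjusted p = 0.0313 by edgeR) for HFpEF-Veh and -0.46 (SE 0.12, adjusted p = 0.0495) for HFpEF-TYA-018, each against Control-Veh. The region's other tested genes were lower in level and not called. H2-Q10 had 1.64 to 3.52 CPM in Control-Veh, and 0.927 to 1.74 in HFpEF-Veh (log2 fold change -1.10, adjusted p = 0.0572 by edgeR), and H2-Q5, annotated as a polymorphic pseudogene, had 3.15 to 5.79 CPM and 1.72 to 3.10 CPM (log2 fold change -0.70, adjusted p = 0.0611 by edgeR).

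The H2-Q calls stood near the threshold. H2-Q6 in HFpEF-Veh was not called without C2 (adjusted p = 0.0579), V3 (0.0668) or V4 (0.0625), H2-Q7 was not called in 8 of the 12 fits that left out 1 library, and H2-Q4 in 5 of 12, all by edgeR and all with the same sign. In HFpEF-TYA-018 against Control-Veh, H2-Q4 was not called in 9 and H2-Q6 in 10 of those 12 fits. With the effective lengths as an offset, H2-Q6 stayed called in HFpEF-Veh (-0.79, adjusted p = 0.0360), whereas H2-Q4 (-0.38, adjusted p = 0.0932 by edgeR) and H2-Q7 (-0.40, adjusted p = 0.153) did not. On log2(TPM + 1) none of the 3 was called in HFpEF-Veh (adjusted p = 0.0813 for H2-Q6, 0.105 for H2-Q7 and 0.147 for H2-Q4 by limma). With the endothelial score as a covariate H2-Q6 had an adjusted p of 0.0606 by edgeR, in a fit that left 1045 of all tested genes called. These genes also share sequence, with 50.3% of the 31-base stretches of H2-Q6, 39.1% of H2-Q7 and 38.4% of H2-Q4 found in other genes. Members that shared at least 20% of the smaller gene's 31-base stretches were also summed and counted as 1 gene. H2-Q6 and H2-Q7, at 18.4%, were not summed with each other, so reads shared between the sums remain. H2-Q4 with H2-Q6 gave -0.54 (SE 0.15, adjusted p = 0.0224 by edgeR) and H2-Q7 with H2-Q5 and H2-Q10 gave -0.67 (SE 0.19, adjusted p = 0.0292) for HFpEF-Veh against Control-Veh. For HFpEF-TYA-018 against Control-Veh the sums gave -0.57 (adjusted p = 0.0437) and -0.72 (adjusted p = 0.0492). For HFpEF-TYA-018 against HFpEF-Veh they gave -0.03 (adjusted p = 0.918) and -0.05 (adjusted p = 0.882).

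H2-T24, a non-classical heavy chain gene of the H2-T region (chr17:36005695-36020560, minus strand), rose in HFpEF-Veh and fell after TYA-018. It had 6.13, 3.18, 3.71 and 4.10 CPM in C1 to C4, 7.43, 7.74, 6.02 and 7.13 CPM in V1 to V4, and 4.50, 5.04, 4.90 and 3.68 CPM in T1 to T4. The treated libraries were all below HFpEF-Veh, and C1 alone among the controls reached the range of HFpEF-Veh. The log2 fold change was 0.72 (SE 0.18, adjusted p = 0.0159 by edgeR) for HFpEF-Veh against Control-Veh and -0.64 (SE 0.18, adjusted p = 0.0292) for HFpEF-TYA-018 against HFpEF-Veh. The increase was called in all 12 fits without 1 library, and was not called on log2(TPM + 1) (0.64, adjusted p = 0.0734 by limma) or with the endothelial markers as a covariate (0.64, adjusted p = 0.111 by edgeR). The decrease was not called without V1, V2, V4, T1 or T4 (adjusted p = 0.0623 to 0.0718 by edgeR). With the macrophage score as a covariate the values were 0.11 (adjusted p = 0.963 by edgeR) and -0.16 (adjusted p = 0.926). That fit left 1 and 0 of all tested genes called, so the loss of these calls is not particular to H2-T24. The endothelial score left 1045 and 96 of all tested genes called. HFpEF-TYA-018 against Control-Veh gave 0.08 with a 95% interval of -0.32 to 0.48. H2-T24 shared 6.4% of its 31-base stretches with other genes.

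The other 3 tested genes of the H2-T region (H2-T10, H2-T22 and H2-T23) were not called. H2-T23, which encodes Qa-1, the ligand of inhibitory receptors on natural killer cells, had 24.2 to 30.0 CPM in Control-Veh, 28.7 to 35.3 in HFpEF-Veh and 28.4 to 30.1 CPM in HFpEF-TYA-018. The log2 fold change in HFpEF-Veh against Control-Veh was 0.21 (adjusted p = 0.0794 by edgeR). H2-T22 had 20.4 to 26.6 CPM, 20.1 to 23.3 CPM and 18.7 to 20.0 CPM in the same order, and every HFpEF-TYA-018 library was below every library of the other groups. It was not called against HFpEF-Veh (-0.16, adjusted p = 0.196 by edgeR) or Control-Veh (-0.25, adjusted p = 0.101), and 51.0% of its stretches were shared, mostly with H2-T10. H2-T10, annotated as a polymorphic pseudogene, had 1.12 to 2.17 CPM over all libraries. Outside the H2-T region, H2-M3, which presents formylated peptides, had 2.48 to 3.54 CPM over all libraries and a log2 fold change of no more than 0.08 in size in any comparison.

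The genes that load peptides on class I differed little. The transporter subunit Tap1 had 15.3, 13.5, 10.4 and 11.4 CPM in C1 to C4, 11.1, 11.1, 10.3 and 8.54 CPM in V1 to V4, and 9.65, 12.3, 11.7 and 8.59 CPM in T1 to T4. Its partner Tap2 had 29.4, 32.2, 27.6 and 27.9 CPM in C1 to C4, 26.3, 29.0, 25.02 and 24.1 CPM in V1 to V4, and 27.8, 28.0, 25.8 and 27.6 CPM in T1 to T4. The groups overlapped for both. For HFpEF-Veh against Control-Veh the 95% interval of the log2 fold change was -0.62 to 0.01 for Tap1 and -0.31 to -0.02 for Tap2 (adjusted p = 0.157 and 0.104 by edgeR). Tapbp, the tapasin gene, varied within groups more than between them. It had 12.9, 5.36, 6.47 and 4.96 CPM in C1 to C4, 4.62, 9.52, 12.5 and 4.46 CPM in V1 to V4, and 8.94, 8.44, 8.39 and 11.001 CPM in T1 to T4.

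Of 10 further genes of class I processing, 3 were called in HFpEF-Veh against Control-Veh, 1 higher and 2 lower, and 2 in HFpEF-TYA-018 against HFpEF-Veh, 1 each way, beside 21.2% and 19.3% of all genes. Psme1 and Psme2 encode the PA28 cap of the proteasome. Psme1 had 81.4 to 107 CPM in Control-Veh, 62.9 to 76.9 in HFpEF-Veh and 77.6 to 86.1 CPM in HFpEF-TYA-018, and fell in HFpEF-Veh (log2 fold change -0.42, adjusted p = 0.00543 by edgeR). Psme2 had 29.7 to 34.9 CPM, 24.3 to 30.2 CPM and 30.6 to 36.0 CPM, fell in HFpEF-Veh (-0.27, adjusted p = 0.0321 by edgeR) and rose after TYA-018 (0.34, adjusted p = 0.0146). Pdia3, a disulfide isomerase of the loading complex, went the other way. It had 84.3 to 92.7 CPM, 96.3 to 119 CPM and 79.2 to 89.8 CPM, rose in HFpEF-Veh (0.26, adjusted p = 0.0241 by edgeR) and fell after TYA-018 (-0.32, adjusted p = 0.0112). Psmb9, an immunoproteasome subunit whose gene overlaps Tap1, had 4.24 to 6.69 CPM in HFpEF-Veh and 6.95 to 7.79 CPM in HFpEF-TYA-018 and was not called (0.43, adjusted p = 0.0659 by edgeR). None of the 10 was called in HFpEF-TYA-018 against Control-Veh, where Calr (-0.16), Psme1 (-0.19) and Erap1 (-0.14) had the smallest p.

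In the edgeR fit on counts no class II gene was called in any comparison, and none of the 9 tested reached an unadjusted p under 0.05. H2-Aa (chr17:34282744-34287823, minus strand), the alpha chain, had 40.3, 33.6, 27.8 and 28.7 CPM in C1 to C4, 36.3, 57.1, 29.0 and 39.2 CPM in V1 to V4, and 32.3, 29.4, 38.6 and 37.0 CPM in T1 to T4. H2-Ab1, the beta chain, had 32.4, 32.0, 25.2 and 24.5 CPM in C1 to C4, 33.5, 48.9, 25.5 and 34.8 CPM in V1 to V4, and 26.6, 26.5, 31.6 and 30.4 CPM in T1 to T4. Cd74, the invariant chain, had 119, 105, 94.9 and 87.8 CPM in C1 to C4, 114, 168, 94.2 and 118 CPM in V1 to V4, and 90.1, 91.2, 107 and 112 CPM in T1 to T4. V2 was the highest library for all 3, and the groups overlapped.

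For HFpEF-Veh against Control-Veh the log2 fold changes of H2-Aa, H2-Ab1 and Cd74 were 0.31, 0.32 and 0.28 (adjusted p = 0.253, 0.188 and 0.220 by edgeR), with intervals from -0.09 to 0.71, -0.04 to 0.68 and -0.06 to 0.62. For HFpEF-TYA-018 against HFpEF-Veh they were -0.23, -0.31 and -0.30 (adjusted p = 0.404, 0.214 and 0.199 by edgeR). Without V2 the first comparison gave 0.10, 0.13 and 0.10 and the second -0.02, -0.12 and -0.12. With the effective lengths as an offset, H2-Ab1 was called lower in HFpEF-TYA-018 than in HFpEF-Veh (-0.51, adjusted p = 0.0446 by edgeR). These libraries therefore do not show that the groups were alike. The 3 genes kept close proportions in every library. For each 100 counts of Cd74 there were 29.3 to 36.2 counts of H2-Aa and 26.6 to 30.5 counts of H2-Ab1 over the 12 libraries.

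Summed class II counts were 144 to 197 CPM in Control-Veh, 153 to 280 in HFpEF-Veh and 152 to 185 CPM in HFpEF-TYA-018. Set against the summed macrophage and monocyte markers of the same library, they were 105 to 120 per 100 in Control-Veh, 64.6 to 97.6 per 100 in HFpEF-Veh and 92.1 to 104 per 100 in HFpEF-TYA-018. Control-Veh lay above both HFpEF groups with no overlap. Of 7 tested dendritic cell markers, 1 was called higher in HFpEF-Veh, or 14.3%, fewer than the 21.2% of all genes. It was Zbtb46, which endothelial cells also express, with 19.7 to 22.7 CPM in HFpEF-Veh against 15.3 to 17.7 CPM in Control-Veh, and most of the summed level of the list came from it. Of the 7, 6 had a positive log2 fold change in that comparison. In HFpEF-TYA-018 against HFpEF-Veh 2 of 7 were called lower, where 10.4% of all genes were. They were Zbtb46 (-0.48, adjusted p = 0.00711 by edgeR) and Clec9a (-1.77, adjusted p = 0.0329). Clec9a was low, with 0.224 to 0.725 CPM in HFpEF-Veh and 0.104 to 0.216 CPM in HFpEF-TYA-018. Of 5 tested B cell markers, 1 was called lower in HFpEF-Veh (Cd79a, a chain of the B cell receptor complex, with the summed list at 1.29 to 1.92 against 2.31 to 3.34 CPM).

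H2-Eb1, the class II beta chain of the I-E molecule, was nearly absent from the table. It held 2.02 to 42.0 counts per library, and its level was 0.01 to 0.23 TPM, where H2-Aa had 3.95 to 13.4 TPM and H2-Ab1 9.59 to 14.9 TPM. Within Control-Veh, C3 had 0.662 CPM and the others 0.102 to 0.136 CPM. C57BL6 mice carry a defective gene for the I-E alpha chain, listed as H2-Ea-ps, and it was at 0 in all libraries. The cause of the low H2-Eb1 count was not tested. H2-DMa, which with H2-DMb1 helps exchange peptides on class II, had at most 0.774 CPM and was at 0 in C4, T2 and T3, while H2-DMb1 had 2.04 to 4.32 CPM. For H2-DMa the 95% interval of H2-DMa in HFpEF-Veh against Control-Veh ran from -1.64 to 3.54 on the log2 scale, so no direction is given, while that of H2-DMb1 ran from -0.29 to 0.60.

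Of 8 listed genes that process class II peptides, 5 were in the table and tested, and 2 were called in each comparison, where 21.2%, 19.3% and 5.86% of all genes were called. Ctss, cathepsin S, which trims the invariant chain, had 8.73, 5.01, 5.85 and 5.56 CPM in C1 to C4, 10.1, 17.8, 12.97 and 15.4 CPM in V1 to V4, and 7.01, 8.49, 9.50 and 9.17 CPM in T1 to T4. All HFpEF-Veh libraries were above all others. It rose in HFpEF-Veh (log2 fold change 1.16, adjusted p = 0.00231 by edgeR) and fell after TYA-018 (-0.72, adjusted p = 0.0244). Ctsb, cathepsin B, rose in HFpEF-Veh (0.20, adjusted p = 0.0338 by edgeR) and rose in HFpEF-TYA-018 against Control-Veh (0.24, adjusted p = 0.0351). Ctsd, cathepsin D, had 584 to 633 CPM in Control-Veh, 604 to 670 in HFpEF-Veh and 763 to 821 CPM in HFpEF-TYA-018, and rose after TYA-018 against HFpEF-Veh (0.32, adjusted p = 0.00434 by edgeR) and against Control-Veh (0.39, adjusted p = 0.00439). Lgmn and Ctsl were not called. These proteases act in lysosomes of many cell types, and Ctss is abundant in macrophages. The summed macrophage, fibroblast and red cell markers all moved the same way as Ctss, and the part of any cell type in its change was not tested.

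The 2 regulators among the members were low and not called. Nlrc5 had 2.44, 6.33, 5.17 and 5.08 CPM in C1 to C4, 3.64, 3.56, 1.32 and 1.89 CPM in V1 to V4, and 1.10, 4.28, 3.74 and 3.11 CPM in T1 to T4. The controls spread from 2.44 to 6.33 CPM, and the log2 fold change was -0.87 (SE 0.43, adjusted p = 0.169 by edgeR) for HFpEF-Veh and -0.64 (SE 0.43, adjusted p = 0.415) for HFpEF-TYA-018, each against Control-Veh. Ciita had 0.584 to 1.06 CPM in Control-Veh, 0.638 to 0.893 in HFpEF-Veh and 0.616 to 1.12 CPM in HFpEF-TYA-018, with log2 fold changes of -0.15, 0.09 and -0.06 in the 3 comparisons. Transcripts of Ciita shared 0.286% of their 31-base stretches with other genes. Whether reads of Dexi, which lies on the same locus, enter the count of Ciita was not tested.

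Of 16 listed regulators and interferon pathway genes, 15 were tested. In HFpEF-Veh against Control-Veh, Ifngr1 was called higher and Rfx5 lower, 2 of 15 where 21.2% of all genes were called. In HFpEF-TYA-018 against HFpEF-Veh, Ifngr1, Creb1 and Nfyb (-0.28, adjusted p = 0.0163 by edgeR) were called lower and Ifngr2 higher, 4 of 15 beside 19.3% of all genes. Ifngr1, the ligand-binding chain of the interferon gamma receptor, had 49.4 to 62.8 CPM in Control-Veh, 66.4 to 77.9 in HFpEF-Veh and 43.5 to 54.0 CPM in HFpEF-TYA-018 (log2 fold change 0.40, adjusted p = 0.00974, then -0.54, adjusted p = 0.00292, by edgeR). Ifngr2, the second chain of that receptor, had 46.8 to 56.2 CPM, 50.3 to 56.4 CPM and 61.9 to 69.0 CPM, and rose after TYA-018 against HFpEF-Veh (0.29, adjusted p = 0.0111 by edgeR) and against Control-Veh (0.30, adjusted p = 0.0242). Rfx5, a subunit of the X-box complex, had 6.09 to 6.79 CPM in Control-Veh, and 4.35 to 5.54 in HFpEF-Veh (-0.38, adjusted p = 0.0483 by edgeR). Creb1, a factor that binds beside the X box, had 17.6 to 19.2 CPM in HFpEF-Veh and 11.1 to 15.1 CPM in HFpEF-TYA-018 (-0.42, adjusted p = 0.00999 by edgeR). Interferon gamma itself (Ifng) had no more than 0.03 CPM in any library, below the limit that a count of 0 allows, while Irf1, a transcription factor that interferon gamma induces, was not called (log2 fold changes 0.14, -0.12 and 0.03 in the 3 comparisons).

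Molecules that resemble class I outside the H2 names had 2 of 6 tested genes called lower in HFpEF-Veh against Control-Veh, where 10.3% of all genes were. Cd1d1, which presents lipids, had 1.68 to 2.05 CPM in Control-Veh, 1.16 to 1.31 in HFpEF-Veh and 1.59 to 1.96 CPM in HFpEF-TYA-018, with no overlap between HFpEF-Veh and the other groups. It fell in HFpEF-Veh (log2 fold change -0.52, adjusted p = 0.0191 by edgeR) and rose after TYA-018 (0.47, adjusted p = 0.0329). Azgp1, a secreted class I-like protein, had 0.624, 0.436, 0.0946 and 1.68 CPM in C1 to C4, was at 0 in all HFpEF-Veh libraries (adjusted p = 0.0434 by edgeR), and had 0, 0, 1.40 and 0.476 CPM in T1 to T4. The libraries of Control-Veh and HFpEF-TYA-018 differed widely among themselves, so no fold change is given. Of 8 genes of costimulation and of the T cell side, none was called in HFpEF-Veh against Control-Veh, and Cd86, the costimulatory ligand on antigen-presenting cells, fell after TYA-018, as 1 of 8 beside 19.3% of all genes. Cd86 had 1.40 to 1.78 CPM in Control-Veh, 1.79 to 2.71 in HFpEF-Veh and 0.903 to 1.42 CPM in HFpEF-TYA-018 (-0.81 against HFpEF-Veh, adjusted p = 0.0129 by edgeR).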

How the data were processed

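The authors sequenced poly(A) RNA with a stranded kit, trimmed reads with fastp and quantified them with Salmon 1.6.0 (version per the labels) against the GENCODE mouse annotation of GRCm38, with sequence, GC and position bias correction. The labels name a human build, which the mouse gene rows contradict. The deposited table holds an estimated count per gene and library, made by the authors from the Salmon output, of which 74.4% to 77.6% were whole, together with TPM and an effective length in bases for each library, as the authors gave them. The study itself tested log2(TPM + 1). Here the estimated counts were rounded, genes of low count were removed by edgeR's filterByExpr (14333 genes left, 99.98% of counts) and tested with edgeR's quasi-likelihood test (edgeR 4.0.16 in R 4.3.3, TMM factors 0.889 to 1.12) in 1 fit of 3 groups with 9 residual degrees of freedom. P-values were adjusted by Benjamini-Hochberg over all tested genes, and the test was checked on simulated data. TPM were tested with limma 3.58.1, and DESeq2 1.42.0 was an alternative. Each library is a separate animal by its label.

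The members and the lists of markers and pathway genes were chosen with earlier results of these data known. Values in every library were given for each member called in a comparison and for B2m, H2-K1, H2-D1, Tap1, Tap2, Tapbp, Cd74, H2-Aa, H2-Ab1 and Nlrc5. Other members were given by range, and from each pathway list the 3 genes of smallest p were taken, of which those called are described with values. Coordinates are from the annotation of GRCm38, and promoters are from RefSeq on GRCm38.p6. Sharing of sequence was measured as the share of a gene's 31-base stretches found in transcripts of other genes. Copies that shared at least 20% of the smaller gene's stretches were summed in an alternative that was added after seeing the data. Some genes of the lists are not reported here.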

Additional observations from a re-analysis of the deposited data

Results flagged for a closer look

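In 3 of 69 groups of 4 libraries, the highest or lowest library stood apart from the others by the criterion of Dixon at the 95% level, which chance alone meets in about 1 in 20 groups. B2m in T1 was at 164 CPM, where the other HFpEF-TYA-018 libraries had 237 to 252 CPM. T1 was also the deepest library, at 83.9 M counts, and the part of depth in its value was not tested. H2-Eb1 in C3 was at 0.662 CPM, where the other Control-Veh libraries had 0.102 to 0.136 CPM. H2-Q4 in T2 was at 38.9 CPM, where the other HFpEF-TYA-018 libraries had 33.8 to 34.4 CPM.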

How the results depend on the processing

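No paired analysis was possible because the groups have no replicate number in common. In HFpEF-Veh against Control-Veh, 4 members were called, and the count was 7 with DESeq2 and 2 with the effective lengths as an offset. It was 0 on log2(TPM + 1) and on log2(TPM + 0.1), and 1 on log2(TPM + 1) rescaled over protein-coding genes without the mitochondrial ones. With either the macrophage or the endothelial score as a covariate it was 0. Without 1 library it was 1 to 5, with 1 without C2 or V3 and 2 without V1 or V4. In HFpEF-TYA-018 against HFpEF-Veh, 2 members were called, and the count was 1 on each of the 3 TPM scales and 0 with either score. On log2(TPM + 1) and log2(TPM + 0.1) that 1 was H2-D1, higher, and neither B2m nor H2-T24 was called. On the rescaled log2(TPM + 1) that 1 was B2m, lower. Without 1 library it was 1 to 2, with 1 without V1, V2, V4, T1 or T4. In HFpEF-TYA-018 against Control-Veh, 2 members were called, and the count was 4 with DESeq2, 1 with the macrophage score, and 0 without a filter, on each of the 3 TPM scales, with only those 2 groups in the fit and with the endothelial score. Without 1 library it was 0 to 3, with 0 without C1, C2, C4, V1, V4, T1, T3 or T4 and 1 without V2. Size factors from DESeq2, a stricter filter and copies counted as 1 gene kept each count within 1.5 times. The cause of these differences was not tested.

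H2-D1 in HFpEF-TYA-018 against HFpEF-Veh turned from -0.16 to 0.48 on log2(TPM + 1) and to 0.48 on log2(TPM + 0.1), scales on which the median of all genes moved by 0.17 and 0.34. B2m in that comparison was no longer called on those scales (-0.27 on each, adjusted p = 0.127 and 0.128 by limma), nor with the macrophage score (-0.20, adjusted p = 0.858 by edgeR) or the endothelial score (-0.33, adjusted p = 0.417). The macrophage score left 1 and 0 genes called among all genes in the comparisons with HFpEF-Veh, and the endothelial score left 1045 and 96. The 8 called differences of named members kept their sign under every alternative, and of 40 not called, 31 changed sign under at least 1 alternative. Of those 40, 8 were called under at least 1 alternative or without 1 library: H2-K1 in both comparisons with HFpEF-Veh, Tap2 in HFpEF-Veh against Control-Veh, H2-D1 and H2-Ab1 in HFpEF-TYA-018 against HFpEF-Veh, and B2m, H2-Q7 and Nlrc5 in HFpEF-TYA-018 against Control-Veh. H2-Eb1 and H2-DMa varied widely between libraries at few counts, for which no cause was tested.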
